A study of Mus musculus with 12 samples.

Results

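Penk, the gene for proenkephalin, was examined in RNA-seq libraries of mouse articular chondrocytes as 1 of 17536 genes with a value in every library. It was chosen by its measured values, namely its difference between cartilage zones, its spread between libraries and the genes that correlate with it, so these are given as descriptions without a test. The libraries came from superficial zone (SFZ) and deep zone (DZ) cells of 5-day-old C57BL/6 mice (C57BL/6J in the study's methods), 12 in all, 3 for each genotype in each zone. R3-Cntl mice are Runx3 fl/fl with no Cre named. R3-cKO mice are Runx3 fl/fl with Cre under the Col2a1 promoter, so that recombination depends on cells that have used this cartilage collagen promoter. SFZ cells were released from ends of the femur and tibia with trypsin and then collagenase, DZ cells by a further collagenase step on the epiphyseal cartilage that was left, and the study's methods describe monolayer culture. The study describes 3 individual littermate mice of each genotype, and the labels do not say which libraries came from the same mouse or litter.

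Proenkephalin is the precursor of Met-enkephalin and Leu-enkephalin, opioid peptides that are cut out at pairs of basic residues by prohormone convertases and trimmed by carboxypeptidase E. Released enkephalins act on delta and mu opioid receptors, which signal through Gi proteins, and are broken down by peptidases such as neprilysin and aminopeptidase N. The gene is best known from neurons and the adrenal medulla, and its transcript has also been described in mesenchymal cells of developing skeletal tissues.

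Penk (Entrez gene 18619) lies on the reverse strand of mm9 at chr4:4060678-4065966. Its longest annotated coding transcript in GENCODE vM1 has 2 exons and a coding sequence of 807 bases, which is 268 codons and the stop. The stretches below are the parts of that sequence that code for enkephalin, shown because they are what the transcript contributes to opioid signalling. Each is written 5′ to 3′ in the sense of the mRNA, with the enkephalin codons in capitals and the neighbouring codons, 2 on each side, in lower case. All 7 lie in exon 2, within chr4:4060989-4061501, and 6 code for Met-enkephalin and 1 for Leu-enkephalin.
stretch 1: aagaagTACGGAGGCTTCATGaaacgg
stretch 2: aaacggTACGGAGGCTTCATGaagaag
stretch 3: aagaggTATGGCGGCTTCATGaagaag
stretch 4: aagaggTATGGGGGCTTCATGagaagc
stretch 5: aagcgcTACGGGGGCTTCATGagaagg
stretch 6: aagaggTATGGGGGCTTCCTGaagcgc
stretch 7: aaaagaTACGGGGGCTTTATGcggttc
A pair of basic codons stands on both sides of 5 of the 7. Stretches 4 and 7 have such a pair before them, and 3 and 2 further codons, respectively, before the next pair or the stop. The 7 stretches use 6 different coding sequences, stretches 1 and 2 having the same capitals. Values per gene sum over the whole transcript and do not report which peptides were made.

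The targeted gene was read first as a check of the labels. For SFZ cells, libraries 1, 2 and 3 of R3-Cntl had Runx3 values of 10.7, 5.98 and 6.65 FPKM, and those labelled R3-cKO had 11.8, 9.07 and 3.42 FPKM. For DZ cells the values were 12.7, 12.7 and 7.66 FPKM under the R3-Cntl label and 16.0, 12.7 and 8.14 FPKM under the R3-cKO label. FPKM are mapped fragments scaled to transcript length and library depth. The difference of R3-cKO minus R3-Cntl on the log2(FPKM + 1) scale was -0.04 in SFZ and 0.13 in DZ cells (limma adjusted p = 0.9997 and 0.999). The label is therefore not matched by a clear loss of Runx3 signal, and a value per gene does not show whether the floxed part was lost, so these are called the libraries labelled R3-cKO. The study follows Prg4, the lubricin gene, as a gene that depends on Runx3. Prg4 had 22.2, 8.38 and 7.13 FPKM in SFZ libraries of R3-Cntl and 6.95, 2.47 and 2.13 FPKM under the R3-cKO label. The lowest R3-Cntl value, 7.13 FPKM, lay next to the highest value under the R3-cKO label, 6.95 FPKM. The difference was -1.45 and did not pass the test (limma adjusted p = 0.9997). The Y-linked gene Ddx3y, looked at outside the rule for naming genes, did not exceed 0.02 FPKM in libraries 2 and 3 labelled R3-cKO, whichever the zone, and was at 4.96 FPKM or more in the other 8. For numbers 2 and 3, therefore, presence of Y-linked transcripts and genotype label cannot be told apart.

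All 13 chondrocyte genes of the marker list were measured, led by Col2a1, the main collagen of cartilage, which ranged from 3049 to 22791 FPKM over the 12 libraries. Summed over the list, SFZ libraries 1, 2 and 3 reached 16041, 5321 and 10006 FPKM for R3-Cntl, against 13861, 8118 and 6119 FPKM under the R3-cKO label. DZ libraries reached 37284, 23391 and 30387 FPKM for R3-Cntl, against 24837, 16439 and 29808 FPKM under the R3-cKO label. Every DZ library was above every SFZ library on this sum. Of the 10 neuronal genes, 6 stayed under 1 FPKM in every library, with Snap25, Rbfox3 and Nefl at or under 0.06 FPKM. The other 4, Tubb3, Syt1, Gap43 and Prph, reached at most 4.07, 1.92, 3.16 and 3.18 FPKM. Syt1 was highest in R3-cKO DZ library 3. Over the 12 libraries its r to Penk was 0.68, against -0.19, -0.81 and 0.27 for Tubb3, Gap43 and Prph.

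Penk was abundant in SFZ cells and lower in most DZ libraries, with 1 library far above the rest. SFZ libraries 1, 2 and 3 of R3-Cntl had Penk levels of 551, 794 and 512 FPKM. Those labelled R3-cKO had levels of 662, 305 and 5556 FPKM. DZ levels were 153, 167 and 805 FPKM for R3-Cntl, and 94.1, 119 and 1064 FPKM under the R3-cKO label. R3-cKO SFZ library 3 lay 5.22 times above the next library and 7.00 times above the next SFZ library. In DZ cells both number 3 libraries were high, each at least 4.82 times any other DZ library, whereas R3-Cntl SFZ library 3 was the lowest of its group. Because of these libraries the SFZ and DZ ranges overlapped within each genotype label. Fewer cells expressing Penk and less Penk RNA per cell cannot be told apart in such libraries.

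**Figure D1:**
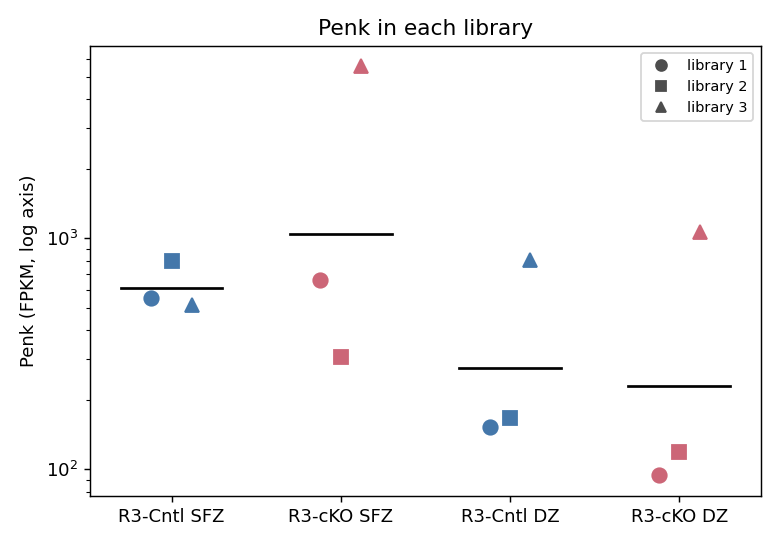
Penk in each of the 12 libraries in FPKM on a log axis, by group, with a marker shape for each library number and a line at the mean of log2(FPKM + 1) turned back into FPKM. R3-cKO SFZ library 3 stands at 5556 FPKM, and the DZ libraries of number 3 stand at 805 and 1064 FPKM.

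In R3-cKO SFZ library 3 Penk was the gene with the highest value of all 17536 and took 1.35% of the FPKM of the library. Its rank among SFZ libraries was 112, 69 and 124 for R3-Cntl, and 98 and 188 for libraries 1 and 2 of R3-cKO. DZ ranks were 378, 365 and 65 for R3-Cntl, and 673, 530 and 36 for R3-cKO. The mean of 898 FPKM over 12 libraries placed it at rank 57, above Matn1, a cartilage matrix gene, at 895 FPKM and Rpl13, a ribosomal protein gene, at 894 FPKM, and below Eno1, a glycolysis gene, at 915 FPKM. That place rests on R3-cKO SFZ library 3, without which the mean was 475 FPKM and the rank 133. Rpl13 ran only from 696 to 1145 FPKM across libraries, against 94.1 to 5556 FPKM for Penk. As level references, the means of Col2a1, Acan, Actb and Gapdh were 11230, 830, 1000.5 and 1958 FPKM, and that of Prg4 was 5.21 FPKM.

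Fragment counts were not used here, so no counting error of Penk is given, and error is read from the spread between libraries.

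Zone by zone, the median of 6 libraries was 606 FPKM in SFZ and 160 FPKM in DZ cells, a ratio of 3.79. The ratio of the arithmetic means, 1397 and 400 FPKM, was 3.49, and without R3-cKO SFZ library 3 it was 1.41, while the ratio of medians was then 3.45. On the log2(FPKM + 1) scale SFZ exceeded DZ by 1.15 for R3-Cntl and by 2.18 for R3-cKO. Without R3-cKO SFZ library 3 the latter difference was 0.97, and without R3-cKO DZ library 3 it was 3.29. The R3-Cntl difference was 1.92 without DZ library 3 and 0.72 without DZ library 1. Within R3-Cntl, SFZ was 3.61 and 4.75 times DZ in numbers 1 and 2 and 0.636 times DZ in number 3. Within the libraries labelled R3-cKO it was 7.03, 2.57 and 5.22 times DZ. For number 3 of R3-Cntl SFZ was thus below DZ, and the labels do not say that equal numbers are pairs. Unequal numbers were as alike in places, as the correlations of deviations of SFZ library 3 with DZ library 2 (0.580) and of 2 with 3 (0.380) show for R3-Cntl.

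Ordered by the geometric mean, the groups were R3-cKO SFZ (1039 FPKM), R3-Cntl SFZ (607 FPKM), R3-Cntl DZ (274 FPKM) and R3-cKO DZ (229 FPKM). Neighbours in this order differed by 0.77, 1.15 and 0.26 on the log2 scale. As a description and not a test, all 3 steps were smaller than the standard deviation of single libraries within groups, which was 1.61.

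That standard deviation was higher than in 99.8% of the 5925 genes averaging at least 10 FPKM, whose median was 0.21. Only 11 of them varied more. Among the 624 genes averaging at least 100 FPKM, Col10a1, a collagen of hypertrophic chondrocytes, and Col1a1, the collagen of bone and fibrous tissue, exceeded it with 1.84 and 1.65 (the 2 were found after values were seen). Penk varied least in R3-Cntl SFZ cells, with an SD of 0.34 against a median gene at 0.14, and more widely in R3-cKO SFZ, R3-Cntl DZ and R3-cKO DZ cells, with SDs of 2.17, 1.35 and 1.92 (n = 3 each). Without R3-cKO SFZ library 3 the value within groups was 1.30, with 37 of the 5925 genes above it. The wide spread was therefore not that of 1 library alone, since the DZ groups contributed to it.

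**Figure D2:**
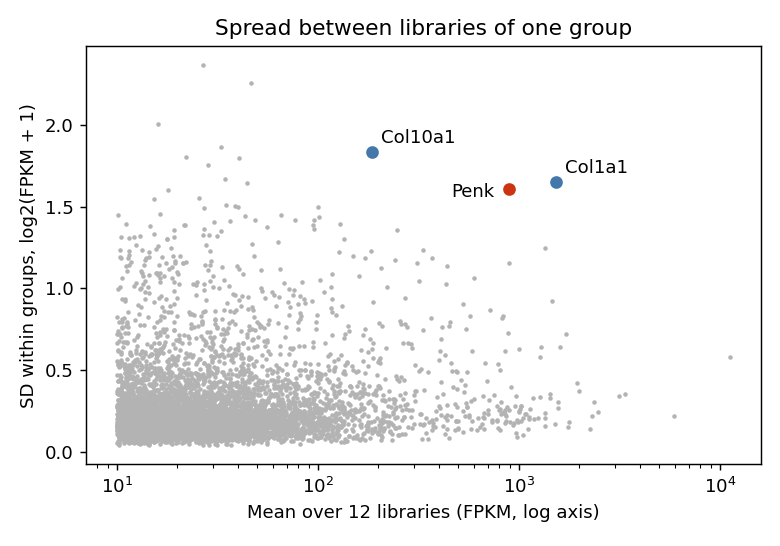
Standard deviation within groups of log2(FPKM + 1) against the mean over 12 libraries in FPKM on a log axis, with a point for each of the 5925 genes averaging at least 10 FPKM. Penk, at 1.61, sits near Col1a1 at 1.65 and under Col10a1 at 1.84, far above the median of 0.21.

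The genotype labels were compared within each zone, as the study does to follow the loss of Runx3. The study lists Penk among the SFZ genes highest by this contrast in these same libraries, so the test given here is not independent evidence. For Penk it gives a DESeq2 p-value under 0.05 and names no adjustment for many genes. The limma fits on log2(FPKM + 1) given here are another method. Mean Penk in SFZ cells was 619 ± 153 FPKM for R3-Cntl and 2174 ± 2934 FPKM under the R3-cKO label (SD, n = 3 each). The groups overlapped, since R3-cKO library 2 lay below every R3-Cntl library. The log2 difference was 0.77 (standard error 1.03, limma adjusted p = 0.9997), and exact permutation of the labels, two-sided, gave p = 0.8, where 3 libraries against 3 cannot give less than 0.1. Without R3-cKO SFZ library 3 the difference turned to -0.43, and the mean of the other 2 libraries of that group, 483 FPKM, was 0.781 times that of R3-Cntl. Number by number, the libraries labelled R3-cKO were 1.20, 0.384 and 10.8 times R3-Cntl, a matching that is uncertain.

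In DZ cells the means were 375 ± 373 FPKM for R3-Cntl and 426 ± 553 FPKM under the R3-cKO label (SD, n = 3 each), and the groups again overlapped. On the log2 scale the latter were lower by a difference of -0.26 (standard error 1.06, limma adjusted p = 0.999), with an exact permutation p of 0.7. The sign depended on single libraries, with 0.52 without R3-Cntl DZ library 3, 0.38 and 0.21 without R3-cKO DZ libraries 1 and 2, and -1.37 without R3-cKO DZ library 3. Numbers 1, 2 and 3 gave ratios of 0.617, 0.710 and 1.32. The genotype difference in DZ cells minus that in SFZ cells was -1.03 (standard error 1.63, limma adjusted p = 0.999), and it became 0.17 without R3-cKO SFZ library 3 and -2.14 without R3-cKO DZ library 3. Across all genes limma called 0 of 11537 genes (0%) in the SFZ, 0 of 11091 in the DZ and 0 of 11765 for the difference between zones at an adjusted p under 0.05, with 34, 404 and 99 at an unadjusted p under 0.05. Each of these unadjusted counts was under a share of 0.05 of the genes tested, so 0 calls do not show that differences are absent. The unadjusted counts were 51, 1830 and 506 with the library number as a block. With each library left out they ran from 12 to 1204 in the SFZ, from 211 to 773 in the DZ and from 36 to 714 for the difference between zones. The SFZ extremes were without R3-cKO libraries 3 and 2, the DZ extremes without R3-cKO libraries 2 and 3, and those of the difference without R3-Cntl and R3-cKO SFZ library 2.

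**Figure D3:**
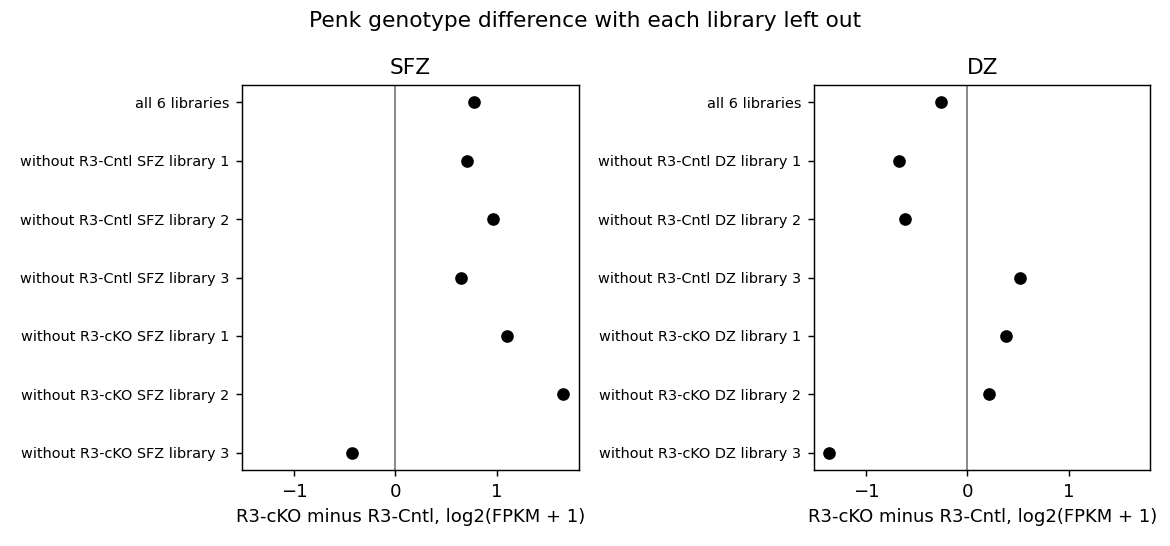
Penk genotype difference, R3-cKO minus R3-Cntl on the log2(FPKM + 1) scale, with all 6 libraries of a zone and with each left out, in SFZ cells (left) and DZ cells (right). The SFZ value runs from -0.43 to 1.66 and the DZ value from -1.37 to 0.52, so both cross 0.

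Of the other opioid precursors, Pomc, the source of beta-endorphin, measured 0.22 to 1.84 FPKM over the 12 libraries. Pdyn, the prodynorphin gene, did not exceed 0.02 FPKM, and Pnoc, the gene for nociceptin, did not exceed 0.1 FPKM. Penk was thus the only precursor of the 4 to reach 10 FPKM in any library. The opioid receptor genes Oprd1, Oprk1 and Oprl1 were at low levels. The delta receptor gene Oprd1 measured 0.06 to 0.57 FPKM, Oprk1 did not exceed 0.03 FPKM and the nociceptin receptor gene Oprl1 measured 0.02 to 0.29 FPKM. Oprm1, the mu receptor gene, was not found among the genes with a value, so its level is not known here. Ackr3, an atypical chemokine receptor that also binds opioid peptides, measured 7.30 to 24.1 FPKM, and Ogfr, the opioid growth factor receptor gene, 27.4 to 41.6 FPKM.

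Among genes for the processing of precursors, Pcsk1 did not exceed 0.04 FPKM and Pcsk2 did not exceed 0.87 FPKM, these being the convertases of neuroendocrine cells. Cpe, for carboxypeptidase E, measured 211 to 879 FPKM and was highest in R3-cKO DZ library 3. Furin, a convertase of most cells, measured 23.2 to 39.8 FPKM. Ctsl, for cathepsin L, measured 80.7 to 249 FPKM, with the highest value in R3-cKO SFZ library 3. Of 9 processing genes 5 reached 1 FPKM in at least 3 libraries.

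Granule genes were nearly absent, with 4 of 5 under 1 FPKM everywhere. Scg2, for secretogranin II, was the exception, at 38.0 FPKM in R3-cKO SFZ library 3 and at most 1.91 FPKM in the 11 others. It was at 0 and 0.09 FPKM in the DZ libraries of number 3 labelled R3-cKO and R3-Cntl, which had the next highest Penk.

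All 9 genes for enkephalin-degrading peptidases reached 1 FPKM in at least 3 libraries. Mme, for neprilysin, measured 6.00 to 57.1 FPKM and Anpep, for aminopeptidase N, 0.51 to 24.4 FPKM, both highest in R3-cKO SFZ library 3. Npepps was also highest there, whereas Dpp3, Ace, Ece1, Ece2, Lnpep and Lap3 of this list were each highest in another library. Gnai2, for a Gi alpha subunit, measured 161 to 280 FPKM. Atf4, the most abundant of the 22 regulators listed, measured 303 to 560 FPKM, and Fos 0.79 to 9.03 FPKM.

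Between genotype labels, 0 genes of these lists had a limma adjusted p under 0.05 in either zone. Between zones, limma called 140 of 11336 genes in R3-Cntl, 1.09% higher and 0.15% lower in SFZ cells. That count was 505, 0 and 3 without SFZ library 1, 2 or 3 and 0, 0 and 4 without DZ library 1, 2 or 3. Of the 20 regulators tested, 1 was called, Nfib, a nuclear factor I gene, higher in SFZ by 1.22 (adjusted p = 0.048). Under the R3-cKO label, 2 genes (0.0176%) were called higher in SFZ and 0 (0%) lower, and the count was 0 to 5 with each library left out. With the library number as a block, these shares were 2.51% and 0.591%, and Nfib and Creb3l1 among 19 regulators and Ece1 among 8 peptidase genes were called higher in SFZ. Ece1 is the endothelin-converting enzyme gene, and its difference was 1.13 (limma adjusted p = 0.0284 with the block). No receptor or processing gene was called between zones in these 3 fits.

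The summed level of fibroblast and perichondrium markers was high in some of the libraries with high Penk. All 14 genes of this list were measured and 13 reached 1 FPKM in at least 3 libraries, with Col1a1 the most abundant and Pi16 under 1 FPKM everywhere. Summed, SFZ libraries 1, 2 and 3 held 4447, 8468 and 4704 FPKM for R3-Cntl, against 4597, 4041 and 12177 FPKM under the R3-cKO label. DZ libraries held 590, 986 and 2955 FPKM for R3-Cntl, against 531, 861 and 2215 FPKM under the R3-cKO label. The sum was highest in R3-cKO SFZ library 3, and within DZ cells it was highest in the number 3 libraries, as was Penk. Col1a1 and Col1a2 carried most of it in R3-cKO SFZ library 3, with 4793 and 4713 FPKM. Col3a1, Postn, Thy1, Pdgfra, Sfrp2, Lum, Dpt and Col14a1 were also highest there. Cd34, Dcn, Pi16 and Mfap5 were highest in other libraries. R3-Cntl SFZ library 2 had the next highest sum with 794 FPKM of Penk, and both DZ libraries of number 3 had more Penk than it with sums below every SFZ library. Single genes differed from the sum. Dcn, for decorin, was lower in SFZ by a difference of -1.41 for R3-Cntl and -0.97 for R3-cKO, without passing the test (limma adjusted p = 0.0753 and 0.574). Cd34 was at 13.9 FPKM in R3-cKO SFZ library 3 and at 27.9 FPKM in R3-Cntl SFZ libraries 2 and 3. Between zones, limma called 5 of the 13 higher in SFZ for R3-Cntl, where 1.09% of all genes were, and 1 for R3-cKO (0.0176% of all genes), or 8 with the block (2.51%). Their median differences of 3.06 and 3.06 compare with 0.17 and 0.09 over all genes.

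The osteoblast, tendon and superficial zone lists overlap in part, sharing Col1a1 with the fibroblast list or Thbs4 with each other. The 8 osteoblast genes, Col1a1 the most abundant, summed to 1939, 3855 and 2178 FPKM for R3-Cntl SFZ, 1989, 1883 and 4836 FPKM for R3-cKO SFZ, 89.7, 299 and 1121 FPKM for R3-Cntl DZ and 85.8, 263 and 631 FPKM for R3-cKO DZ. Dmp1 and Phex, genes of late osteoblasts and osteocytes, did not reach 1 FPKM in any library. The 6 tendon genes, with Fmod the most abundant, summed to 1159, 1006 and 833 FPKM for R3-Cntl SFZ and 1278, 710 and 1528 FPKM for R3-cKO SFZ. Their DZ sums were 598, 479 and 955 FPKM for R3-Cntl and 796, 420 and 795 FPKM for R3-cKO. The 8 superficial zone genes, with Dkk3 the most abundant, summed to 104, 203 and 130 FPKM for R3-Cntl SFZ and 90.8, 99.4 and 229 FPKM for R3-cKO SFZ. Their DZ sums were 12.6, 19.99 and 49.9 FPKM for R3-Cntl and 22.3, 28.7 and 44.8 FPKM for R3-cKO. All 3 sums were highest in R3-cKO SFZ library 3, and within DZ cells they were highest in a number 3 library. Few genes carried these sums, since Col1a1 made up 4793 FPKM of the osteoblast sum in R3-cKO SFZ library 3 and Fmod 1293 FPKM of the tendon sum. Sp7, a transcription factor gene of osteoblasts, was lowest of all 12 libraries there, at 3.50 FPKM. Prg4 at 2.13 FPKM, Creb5 at 0.87 FPKM and Gdf5 at 1.37 FPKM, all of the superficial zone list, were lowest of the SFZ libraries there.

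Other lists went against Penk in some genes or libraries, or followed it in part. The 9 deep zone and hypertrophy genes, with Spp1 the most abundant, summed to 648, 685 and 942 FPKM for R3-Cntl SFZ and 612, 652 and 396 FPKM for R3-cKO SFZ, lowest in R3-cKO SFZ library 3. Their DZ sums were 1360, 936 and 1685 FPKM for R3-Cntl and 803, 903 and 948 FPKM for R3-cKO. Within each DZ group the sum was thus highest in library 3, as was Penk. Of this list Col10a1 went most against Penk (r = -0.93 over 12 libraries). It was at 3.67 FPKM in R3-cKO SFZ library 3. In the DZ libraries of number 3 it was at 68.8 and 59.2 FPKM, against 241 to 793 FPKM in the other DZ libraries. The r of Ihh, Panx3 and Pth1r was also negative (-0.77 to -0.66). That of Runx2, Alpl, Mmp13, Spp1 and Ibsp was positive (0.18 to 0.44). The 10 macrophage genes, with Lyz2 the most abundant, summed to 198, 168 and 7.82 FPKM for R3-Cntl SFZ and 167, 16.5 and 79.0 FPKM for R3-cKO SFZ. Their DZ sums were 8.72, 7.65 and 26.3 FPKM for R3-Cntl and 6.75, 4.93 and 3.76 FPKM for R3-cKO. These were high in 4 SFZ libraries, without an order like that of Penk, and their median zone difference was 1.91 over the 6 tested for R3-Cntl and 2.65 over the 2 tested for R3-cKO, against 0.17 and 0.09 over all genes. The 10 skeletal muscle genes, with Acta1 the most abundant, summed to 162 FPKM in R3-Cntl SFZ library 2 and at most 22.4 FPKM in the other 11. The part of the genes of all these lists in the Penk values was not tested.

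**Figure D4:**
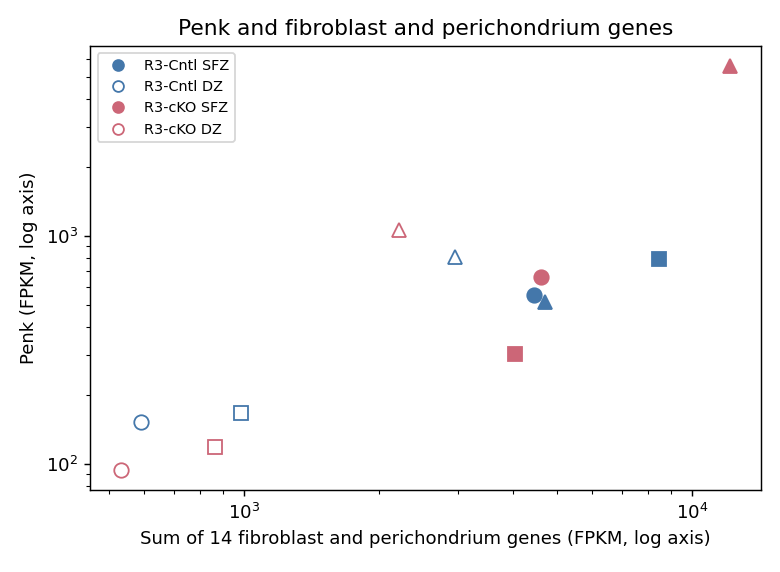
Penk against the summed level of 14 fibroblast and perichondrium genes, both in FPKM on log axes, with filled markers for SFZ and open markers for DZ, and circles, squares and triangles for libraries 1, 2 and 3. R3-cKO SFZ library 3 is at the top right with 12177 and 5556 FPKM, and the DZ libraries of number 3 lie above the other DZ libraries on both axes. Of the sum in R3-cKO SFZ library 3, Col1a1 and Col1a2 held 4793 and 4713 FPKM.

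Over the 12 libraries, the genes averaging at least 10 FPKM most like Penk by Pearson r of log2(FPKM + 1) were Csad (r = 0.972), Rilpl1 (0.969), Hexim1 (0.965), Ginm1 (0.963), Cuedc1 (0.962), 1500015O10Rik (0.959), St6galnac6 (0.957), Itm2b (0.952), Fkbp7 (0.950) and Lgmn (0.944). All 10 had their highest value in R3-cKO SFZ library 3. Csad encodes a decarboxylase of taurine synthesis, Hexim1 an inhibitor of P-TEFb and Lgmn the lysosomal protease legumain. The libraries share groups, zones and numbers, so r describes these 12 libraries only. Spearman rho for the 10 genes was 0.853 to 0.951, r within the 6 SFZ libraries 0.912 to 0.977 and within the 6 DZ libraries 0.888 to 0.995. Leaving out the 2 libraries farthest from the median of Penk, R3-cKO DZ library 1 and R3-cKO SFZ library 3, gave r of 0.923 to 0.982. All these ranges are partly set by the choice of the 10 genes by r in the same libraries. Which genes were highest depended on the measure. Of these 10 genes, 2 stayed among the 10 highest with Spearman rho in place of Pearson r, and 2 with quantile normalization. Across the 5921 genes compared the median r was -0.08, with 60 above 0.9 and 47 below -0.9.

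The 10 genes, chosen by r, spanned a far narrower range than Penk. Csad ran from 8.68 to 26.5 FPKM, and the ratio of highest to lowest library was 2.02 to 7.48 among the 10 genes, against 59.0 for Penk. The lowest r were those of Cpox, for a haem synthesis enzyme, at -0.974, Thumpd3 at -0.952, Prdm4 at -0.950, Ddx49 at -0.942 and Spire1 at -0.941. Each of these 5 was lowest in R3-cKO SFZ library 3. When deviations from the 4 group means were correlated instead, Matn4, a matrilin gene, led with r = 0.983, followed by Pigp at 0.976, Podn at 0.973, Cst3 at 0.972 and Plod1 at 0.964. Without such subtraction r of these 5 was 0.785 to 0.940 over 12 libraries and 0.455 to 0.897 without the 2 farthest libraries. The lowest were Pigp at 0.455 and Plod1 at 0.633. Within zones r of the 5 was 0.963 to 0.984 over the 6 SFZ libraries and 0.934 to 0.981 over the 6 DZ libraries. The 5 were chosen by their deviations in these same libraries, so high r within zones is largely set by that choice. Matn4 measured 165 FPKM in R3-cKO SFZ library 3, 55.5 and 59.9 FPKM in the DZ libraries of number 3, and at most 32.6 FPKM in the 9 others.

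**Figure D5:**
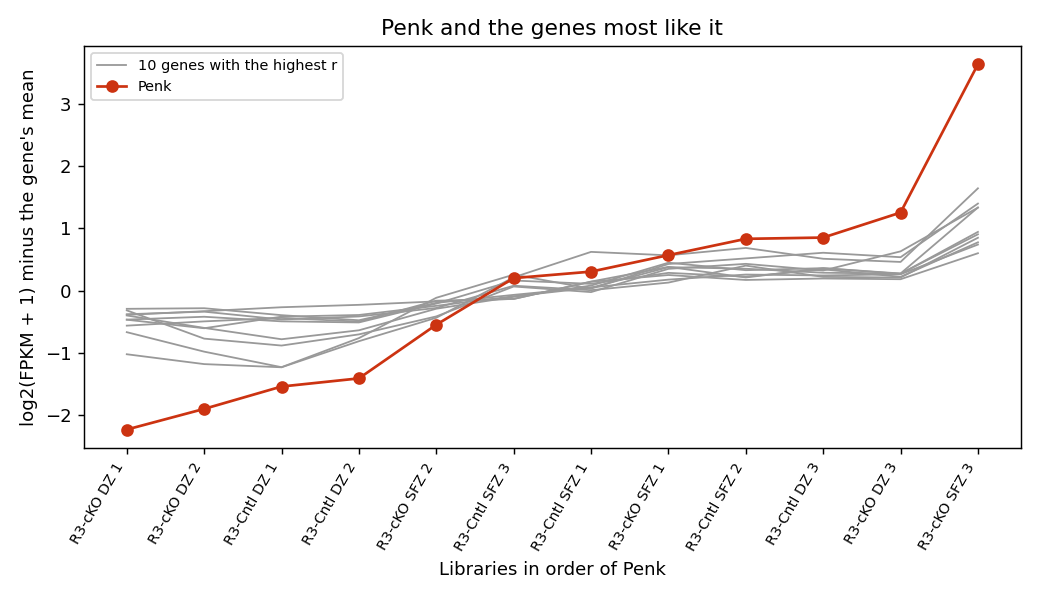
Penk and the 10 genes with the highest r to it, as log2(FPKM + 1) minus each gene's mean, with the 12 libraries in order of Penk. The 10 genes rise with Penk but over ratios of 2.02 to 7.48 from lowest to highest library, against 59.0 for Penk.

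Of the 3 annotated protein-coding genes on each side of Penk in mm9, 4 were measured. The nearest of them, Sdr16c5, begins 113868 bp away and did not exceed 0.69 FPKM. On the other side Impad1, 623665 bp away, measured 34.7 to 42.4 FPKM, Fam110b 1.95 to 5.89 FPKM and Ubxn2b 3.05 to 4.64 FPKM. Their r to Penk over 12 libraries was -0.61 for Sdr16c5, -0.28 for Impad1, 0.75 for Fam110b and 0.31 for Ubxn2b. Impad1 and Ubxn2b varied little between libraries, and Sdr16c5 was at or near 0 in all of them.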

How the data were processed

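The authors mapped paired-end reads to mm9 (the submitters' processing notes name Bowtie 0.12.2) and deposited 1 value per gene and library, whose unit was inferred from the values as FPKM, and the name of the table gives TMM scaling between libraries. Values were analysed as log2(FPKM + 1), so that fold changes of low genes are understated, in R 4.3.3 with limma 3.58.1 (mean-variance trend, Benjamini-Hochberg adjustment). A gene entered a comparison if 3 or more of its libraries had 1 FPKM or more. Penk was also tested by exact permutation of the genotype labels, two-sided, in Python 3.11.15 with pandas 2.3.3, NumPy 2.4.6 and SciPy 1.17.1. The limma fits were tested on simulated data. Penk, the lists and the rule for naming genes (opioid pathway genes, the 10 highest and 5 lowest correlations with Penk, the 5 highest correlations of deviations, neighbours and level references) were chosen with earlier results of these data known. Alternatives were other filters, pseudocounts 0.1 and 5, size factors by median of ratios, normalization by quantiles, the library number as a block, all 12 libraries in 1 model and each library left out. Leaving out all number 3 libraries, and R3-cKO SFZ library 3 for the correlations and the mean level, was added after seeing the data. Libraries of equal number deviated together between genotype labels in DZ cells (correlations of 0.653, 0.781 and 0.687 over 11359 genes) and between zones in the libraries labelled R3-cKO (0.418, 0.781 and 0.653). Sequences and positions are from GENCODE vM1 on NCBIM37 (mm9). Alternatives that need counts were not run, and the ChIP-seq and Runx2 experiments were not analysed here. Some genes that the naming rule covers are not reported here.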

Additional observations from a re-analysis of the deposited data

How the results depend on the processing

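The Penk genotype difference had no limma adjusted p under 0.05 in any of 15 alternatives in the SFZ (0.519 to 1), 15 in the DZ (0.589 to 1) or 20 for the difference between zones (0.698 to 1). Its sign was not stable. With each library left out it ran from -0.43 to 1.66 in the SFZ, from -1.37 to 0.52 in the DZ and from -2.14 to 0.17 for the difference between zones. It turned without R3-cKO SFZ library 3 in the SFZ and between zones, and in the DZ without R3-Cntl library 3 (0.52), R3-cKO library 1 (0.38) or R3-cKO library 2 (0.21). Without all number 3 libraries, an alternative chosen after seeing the data, the SFZ value was -0.56, the DZ value -0.59 and the difference between zones -0.03. Filters, pseudocounts and normalizations kept the sign in each of these 3 comparisons. The Penk zone difference, by which the gene was chosen, is given as a description and ran from 0.72 to 1.92 in R3-Cntl and from 0.97 to 3.29 in the libraries labelled R3-cKO with each library left out. Without all number 3 libraries, again chosen after seeing the data, it was 2.04 in R3-Cntl and 2.08 under the R3-cKO label.

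Counts of genes at an adjusted p under 0.05 were less stable between zones. In R3-Cntl the 140 genes became 0 without a filter, 8 at a mean of at least 10 FPKM, 88 and 29 with pseudocounts of 0.1 and 5, 1 with quantile normalization, 17 with size factors, 798 with all 12 libraries in 1 model, 0 without the number 3 libraries and 0 to 505 with each library left out. Under the R3-cKO label the 2 genes became 5, 0, 1 and 1 under the same filters and pseudocounts, 165 with all 12 libraries, 1 without number 3 and 0 to 5 with each library left out. Between genotype labels 0 became 1 in the DZ without a filter, and stayed 0 with each library left out. The cause of these shifts was not tested.

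With the replicate block the counts were 0 in both genotype comparisons and for the difference between zones, 831 for zones in R3-Cntl and 352 for R3-cKO. The block cannot change a difference in this balanced design, and the adjusted p of Penk was 0.999, 0.589 and 0.854 for the genotype difference in the SFZ, in the DZ and between zones. Correlations of equal numbers were mixed between genotype labels in the SFZ (0.787, -0.094 and -0.415) and between zones in R3-Cntl (0.575, 0.111 and -0.151), which does not show whether those libraries share a litter or mouse. With R3-Cntl SFZ libraries 3 and 2 set against numbers 2 and 3 they were 0.688 and 0.449 in the SFZ and 0.580 and 0.380 between zones. Of the 10 genes most like Penk, 2 were kept with Spearman rho, 6 with a mean of at least 1 FPKM, 2 with quantile normalization, 7 without the 2 farthest libraries and 7 without R3-cKO SFZ library 3. Counts were not used here, so the limits that depth sets are not given.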

Other observations

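R3-cKO SFZ library 3 held further genes at levels not seen elsewhere, all named after their values were seen. Of 5925 genes averaging 10 FPKM or more, 27 (0.456%), with Penk among them, were over 2 times as high there as in any other library. Each of the 11 other libraries had 0 to 6 such genes. Some genes of lower mean were also high there, Scg2 at 38.0 FPKM against 1.91 FPKM in the next library and Cyp2f2 at 19.9 against 1.44 FPKM, and Ldb2 measured 35.0 and 7.76 FPKM. Cxcl12, a chemokine gene of stromal cells, measured 606 FPKM there and 162 FPKM in the next library, and Gas6, a ligand of TAM receptors, 763 and 206 FPKM. Like Scg2, Cyp2f2 and Ldb2, Cxcl12 and Gas6 were picked among the 5905 genes with at least 10 FPKM in this same library. That all of them are high in it is partly set by that choice. For Scg2, Cyp2f2, Ldb2, Cxcl12 and Gas6 the next library was R3-Cntl SFZ library 2, whereas for Penk it was R3-cKO DZ library 3.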
